A study of Mus musculus with 12 samples.

Results

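The liver genes described here encode the factors of blood coagulation and fibrinolysis, with their inhibitors and receptors. They were chosen as a list of 34 named genes, found by the gene names in the scanner files and the shared probe identifiers, of 31870 names on the array. The list puts 22 factors in a hepatocyte-made class, among them Serpina5, which mice make mostly outside the liver, and 12 that endothelial cells, platelets, macrophages or other cells make or that are switched on by injury. Clotting runs as a chain of serine proteases in which tissue factor or the contact system activates factor X, factor X cuts prothrombin to thrombin, and thrombin cuts fibrinogen to fibrin, which factor XIII cross-links. Antithrombin, heparin cofactor II and the protein C system hold the chain in check, and plasmin, cut from plasminogen by tissue or urokinase plasminogen activator, dissolves the clot. The liver parenchyma is the main source of most of these plasma proteins, while von Willebrand factor, factor VIII, thrombomodulin and tissue plasminogen activator come largely from the vessel wall.

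The livers came from mice without factor VII-activating protease (FSAP, a plasma protease encoded by Habp2; genotype FSAP-/-) and from littermates with both copies (WT). All mice had the BalbC background after backcrossing up to the F3 generation, came from heterozygous parents and were 20 to 30 weeks old. Each genotype had 3 sham-operated mice and 3 mice with ligation of the common bile duct (BDL), an operation that blocks bile flow, and livers were frozen 2 weeks later. The labels name no promoter or Cre line that limits the loss of FSAP to 1 cell type, and they give neither the sex of the mice nor the part of Habp2 that was deleted. RNA from each liver was hybridised to a 1-colour Agilent mouse array, 1 mouse per array. A level below is the log2 of a gene's processed signal relative to the 75th percentile of its array, read from the gene's brightest probe, and levels of different genes are not compared. "Rose" and "fell" stand for an adjusted p under 0.05 over all 19531 genes tested (limma, two-sided, Benjamini-Hochberg), and SE is the standard error that the model gives a log2 change.

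The share of spots well above background ran from 54.5% to 62.3%, and array pairs of 1 group correlated at 0.971 to 0.993. Habp2 itself stood at 5.37, 5.47 and 5.50 in WT sham livers, and at -3.45, -6.74 and -6.72 in FSAP-/- sham livers. After BDL it stood at 5.15, 5.03 and 4.97 in WT, and at -7.18, -6.98 and -6.95 in FSAP-/- livers. The FSAP-/- sham array of replicate 1 was the 1 FSAP-/- array on which it was well above background, and that array was also the 1 array of its slide (slide 4). Slide 1 held the 3 WT sham arrays with replicate 1 of WT BDL, slide 2 the other two WT BDL arrays with replicate 2 of FSAP-/- sham, and slide 3 the remaining 4 FSAP-/- arrays. Genes of the Y chromosome were well above background on 3 arrays, replicate 1 of FSAP-/- sham and replicates 1 and 2 of FSAP-/- BDL. Xist was not above background on these arrays, at -7.52, -7.14 and -6.97, and was well above it on every other array. Y-linked signal was thus not balanced between FSAP-/- sham and FSAP-/- BDL. FSAP-/- and WT arrays of the same operation share no slide, so genotype and slide cannot be told apart there, and all 3 arrays with Y-linked signal are FSAP-/-.

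All 34 factors were on the array, 25 with 1 probe and 9 with 2. Of them 29 were well above background on all 12 arrays, and 33 passed the filter of 3 such arrays and were tested. Serpinb2, which encodes the plasminogen activator inhibitor PAI-2, did not pass. It was well above background only on replicate 2 of WT BDL, at -2.37, and on replicate 3 of FSAP-/- BDL, at -0.29, with the other 10 arrays between -7.45 and -5.53.

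The fibrinogen genes lie close together on chromosome 3, with 1 RefSeq gene between Fga and Fgb, and are known as acute phase genes, which interleukin-6 induces in hepatocytes through STAT3. RefSeq promoters (GRCm38.p6) were held for 26 of the 34 genes. F2rl1, Kng1, Plat, Plg, Proc, Serpina10, Thbd and Vwf had no entry. The 250 bases before the start are shown for the 3 fibrinogen chains, because their levels are set beside the acute phase genes below. Capitals mark CTGGGA, the core of the interleukin-6 response element, searched on both strands. The windows are chr3:83025903-83026152, plus strand, for Fga; chr3:83049864-83050113, minus strand, for Fgb; and chr3:83007474-83007723, plus strand, for Fgg.

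Fga: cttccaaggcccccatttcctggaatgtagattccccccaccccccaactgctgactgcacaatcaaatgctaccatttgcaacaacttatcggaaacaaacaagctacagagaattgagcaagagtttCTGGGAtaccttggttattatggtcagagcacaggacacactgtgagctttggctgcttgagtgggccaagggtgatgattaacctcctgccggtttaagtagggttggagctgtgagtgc

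Fgb: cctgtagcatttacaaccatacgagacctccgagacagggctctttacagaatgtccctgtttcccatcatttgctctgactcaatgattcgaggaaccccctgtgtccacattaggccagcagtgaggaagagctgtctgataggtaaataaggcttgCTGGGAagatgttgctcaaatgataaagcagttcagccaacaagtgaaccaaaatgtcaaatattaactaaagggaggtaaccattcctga

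Fgg: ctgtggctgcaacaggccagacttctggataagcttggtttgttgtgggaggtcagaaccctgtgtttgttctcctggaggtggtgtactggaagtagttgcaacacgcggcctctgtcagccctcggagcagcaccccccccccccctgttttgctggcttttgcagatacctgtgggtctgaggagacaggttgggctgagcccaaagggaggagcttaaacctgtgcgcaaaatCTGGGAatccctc

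Each of these 3 windows held 1 match, starting 121 bases before the start in Fga, 91 in Fgb and 13 in Fgg. In all, 13 of the 26 genes with a promoter had a match in at least 1 of their windows. These were 9 of 18 hepatocyte-made and 4 of 8 endothelial or inducible genes. Counted by single window, 27% of all 32851 windows of that length had a match. Some endothelial or inducible genes had more than 1 window, so the shares of genes and of windows are in unlike units. A match is a description of letters and not a binding site. The 2 classes also differed in base composition. The ratio of observed to expected CpG, taken from the highest window of each gene, had a median of 0.21 in the 18 hepatocyte-made genes. It was 0.57 in the 8 endothelial or inducible genes, beside 0.40 for the 27025 genes of the table. Only the endothelial or inducible class held genes with more than 1 window. These were F13a1 (0.24 and 0.35), Serpinb2 (0.00 and 0.33) and Tfpi2 (0.56, 0.17 and 0.09). Pros1, which encodes protein S, was the 1 hepatocyte-made gene above 0.5, at 0.61. Its window (chr16:62854057-62854306, plus strand) is shown because Pros1 is the 1 hepatocyte-made gene that rose in both genotypes, with the GC box GGGCGG and its reverse complement in capitals, some of which overlap.

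Pros1: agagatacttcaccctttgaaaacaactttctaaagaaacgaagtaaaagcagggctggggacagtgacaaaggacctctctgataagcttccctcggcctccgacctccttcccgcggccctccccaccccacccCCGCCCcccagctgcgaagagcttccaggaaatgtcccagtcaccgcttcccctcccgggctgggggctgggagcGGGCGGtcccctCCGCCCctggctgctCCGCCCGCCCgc

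GGGCGG was found before 2 of 18 hepatocyte-made genes, F5 and Pros1. In the other class it was found before 4 of 8 genes, F2r, F3, Gas6 and Tfpi2. These are again shares of genes, while 32.7% of all windows, counted singly, had a match.

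The first comparison asked how 2 weeks of BDL changed these genes in WT livers. Of the 33 factors tested, 9 rose and 9 fell. Over all genes, 15.2% were called higher and 17.7% lower. Among the 22 hepatocyte-made factors 3 rose and 7 fell, with a median log2 change of -0.27, and 1 of the 3 was Serpina5, which was above background on no WT sham array. Among the 11 endothelial and inducible factors tested 6 rose and 2 fell, with a median of 1.83, and the median of all genes was -0.03. The BDL and sham arrays did not overlap for 21 of the 33, beside 52.1% of all genes.

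In FSAP-/- livers BDL raised 7 factors and lowered 12, where 16.2% of all genes were called higher and 22.8% lower. The hepatocyte-made class had 1 rise and 11 falls with a median of -0.67, and the endothelial and inducible class had 6 rises and 1 fall with a median of 1.82. The median of all genes was -0.16. The arrays did not overlap for 20 of the 33, beside 47.5% of all genes. The genotypes share no arrays in these comparisons: 15 factors were called in both, 3 in WT alone (F8, Serpina5 and Cpb2), 4 in FSAP-/- alone (F5, F9, F11 and Plg) and 11 in neither.

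**Figure D1:**
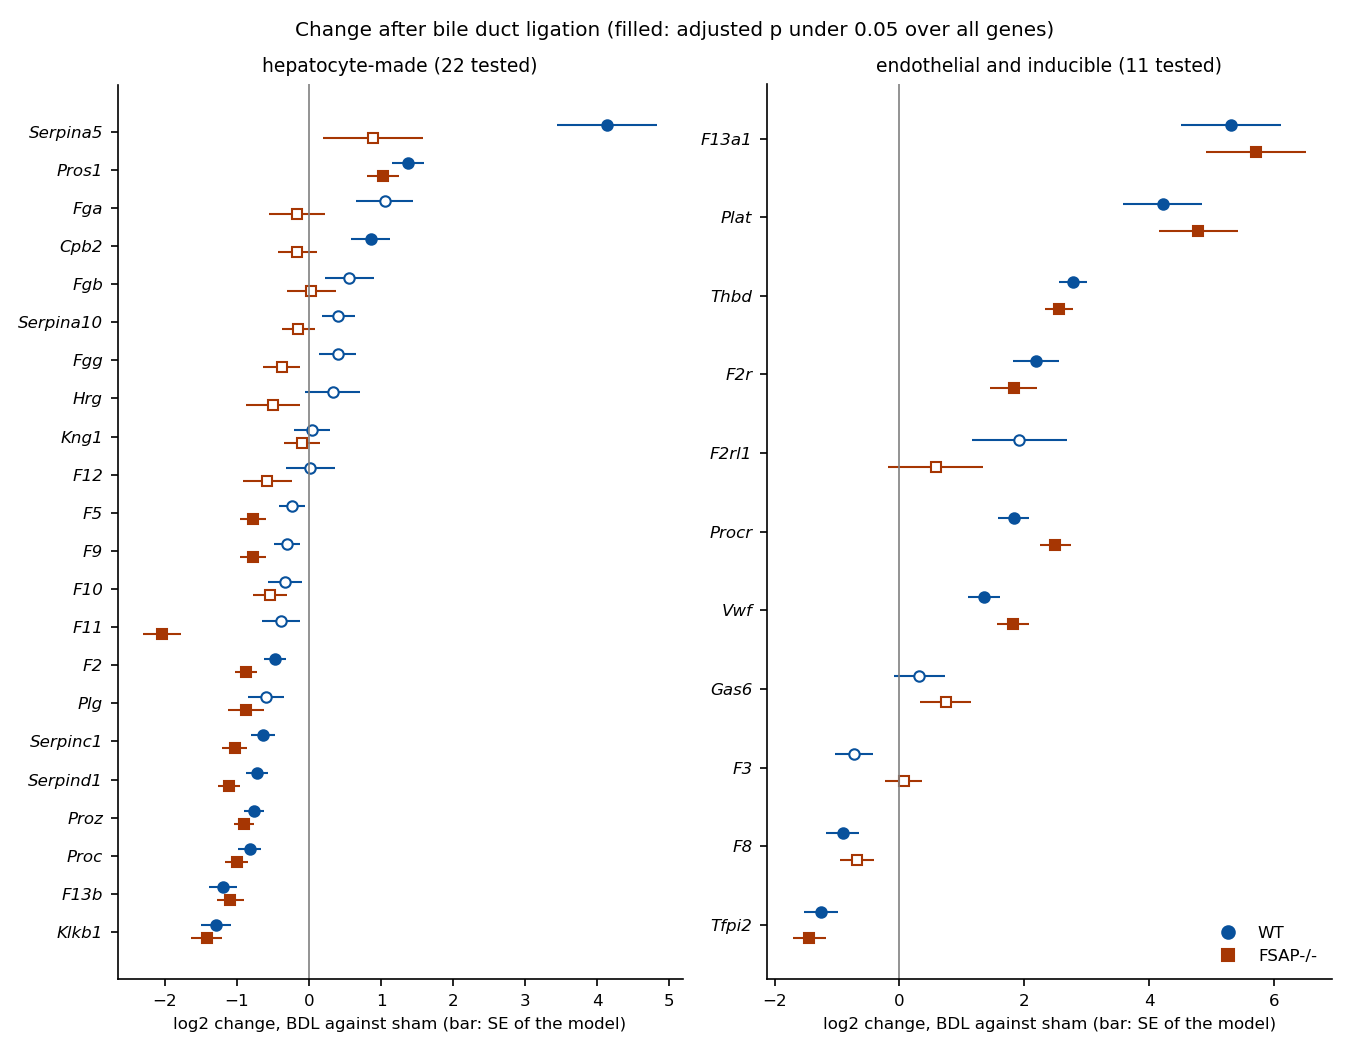
Log2 change of each of the 33 tested factors after BDL against sham (x axis, bars are SE) in WT (blue circles) and FSAP-/- (brown squares), filled where the adjusted p was under 0.05. Of the hepatocyte-made factors (left) 12 of 22 lie below 0 in WT and 19 of 22 in FSAP-/- livers, and of the endothelial and inducible factors (right) 8 of 11 and 9 of 11 lie above it.

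Scaling bears on the hepatocyte-made class. With quantile normalization in place of the 75th percentile, 13 factors rose and 7 fell in WT and 7 rose and 9 fell in FSAP-/- livers, and the class median was -0.01 and -0.25. With scaling to the median of each array the counts were 8 and 11 in WT, and 7 and 14 in FSAP-/- livers, as the median of all genes moved to -0.19 and -0.36. The deposited values of the authors gave the same counts as quantile normalization. The class median of the endothelial and inducible factors lay between 1.62 and 1.85 under these scalings, and with normexp background correction it was 1.19 in WT and 1.38 in FSAP-/- livers. Without the 3 arrays with Y-linked signal it was 1.14 in FSAP-/- livers.

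Fibrin formation comes first by role. Fga, the alpha chain of fibrinogen, stood at 6.19, 6.64 and 6.50 in WT sham livers and at 8.22, 7.61 and 6.64 after BDL. In FSAP-/- livers it stood at 6.49, 6.77 and 6.65 in sham and at 5.88, 7.17 and 6.35 after BDL. Replicate 1 of WT BDL was the highest of all 12 arrays, and replicate 3 was level with the highest WT sham array to 2 decimals. Fgb, the beta chain, stood at 9.0, 9.34 and 8.95 in WT sham livers and at 10.38, 9.49 and 9.10 after BDL, and at 8.94, 9.0 and 9.19 and then 8.42, 9.48 and 9.31 in FSAP-/- livers. Fgg, the gamma chain, stood at 8.69, 8.93 and 8.82 and then 9.78, 9.17 and 8.69 in WT, and at 9.05, 8.90 and 9.05 and then 8.24, 9.0 and 8.62 in FSAP-/- livers. For all 3 chains the highest array was replicate 1 of WT BDL and the lowest FSAP-/- BDL array was replicate 1, while the sham arrays lay close together.

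None of the 3 chains passed the test in either genotype. The log2 changes in WT were 1.05 (SE 0.39, adjusted p = 0.0622) for Fga, 0.56 (SE 0.34, adjusted p = 0.234) for Fgb and 0.40 (SE 0.26, adjusted p = 0.27) for Fgg, with 95% intervals of 0.18 to 1.91, -0.19 to 1.30 and -0.18 to 0.98. In FSAP-/- livers they were -0.17, 0.03 and -0.38. With quantile normalization Fga (1.30, adjusted p = 0.0121), Fgb (0.75, adjusted p = 0.021) and Fgg (0.62, adjusted p = 0.00828) all rose in WT. Within slide 1, which holds the 3 WT sham arrays and only the high WT BDL array, they were 1.78, 1.28 and 0.97. Without that BDL array the changes in WT were 0.68 (adjusted p = 0.197), 0.19 and 0.12. Fga was read by a pair of probes, shown because both bear on the 1 chain closest to the threshold (chr3:82835678-82835737 and chr3:82837260-82837319, mm9).

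Fga probe used: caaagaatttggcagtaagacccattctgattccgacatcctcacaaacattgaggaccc

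Fga second probe: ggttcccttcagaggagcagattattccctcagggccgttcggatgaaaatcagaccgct

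The second probe gave 1.19 in WT and 0.42 in FSAP-/- livers, so the probes had the same sign in WT and opposite signs in FSAP-/- livers. The mean of both passed the test in WT, at 1.12 (adjusted p = 0.0489).

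**Figure D2:**
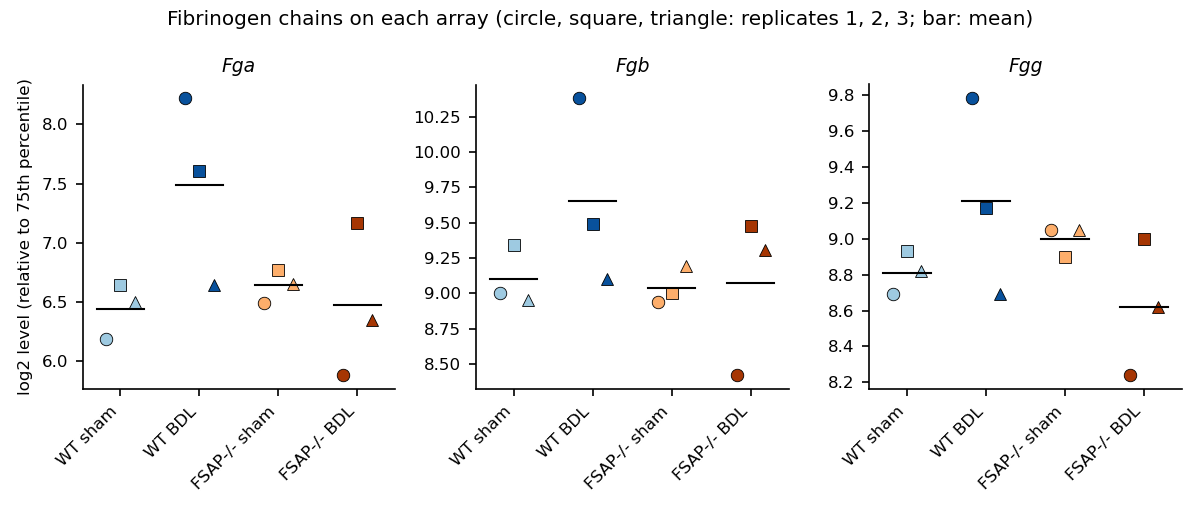
Level of the 3 fibrinogen chains on each array (y axis, log2 relative to the 75th percentile) in the 4 groups, with symbols for replicates and bars for means. Replicate 1 of WT BDL is the highest array for all 3 chains, at 8.22, 10.38 and 9.78, and the other arrays of that group reach down to the sham arrays.

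The acute phase genes moved with the fibrinogen chains across arrays. Of 14 listed, 11 rose and 0 fell in WT (median 1.75), where 15.2% of all genes were called higher and 17.7% lower. In FSAP-/- livers 3 rose and 2 fell (median 0.65), where 16.2% of all genes were called higher and 22.8% lower. Against the sham mean, the median of the 14 was 2.18, 1.72 and 1.20 on the 3 WT BDL arrays. On the FSAP-/- BDL arrays it was 0.10, 1.15 and 0.65. This is the order in which Fga stood within each genotype. Saa1 rose in WT (4.29, SE 0.92, adjusted p = 0.00506) and was at 2.16 in FSAP-/- livers (adjusted p = 0.0873), and Saa2 gave 4.09 and 2.13. None of the listed genes is a fibrinogen chain. Their summed signal, in multiples of the 75th percentile, was 1230 to 1600 in WT sham and 2880 to 6680 in WT BDL livers, and 1190 to 2030 and then 1870 to 3960 in FSAP-/- livers, and each marker was well above background in every group. Their part in the fibrinogen values was not tested.

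F2, prothrombin, stood at 7.92, 8.02 and 7.92 in WT sham livers and at 7.65, 7.46 and 7.36 after BDL, and at 7.97, 7.91 and 8.04 and then 7.31, 7.16 and 6.84 in FSAP-/- livers. No BDL array reached a sham array in either genotype. It fell by 0.47 in WT (SE 0.15, adjusted p = 0.0322) and by 0.87 in FSAP-/- livers (adjusted p = 0.00105). With quantile normalization F2 was at -0.07 in WT (adjusted p = 0.733), and leaving out any WT sham array, or replicate 2 or 3 of WT BDL, also ended that call. In FSAP-/- livers quantile normalization ended it too, at -0.31 (adjusted p = 0.123).

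The subunits of factor XIII, the transglutaminase that cross-links fibrin, went opposite ways. F13a1, the catalytic A subunit, which platelets and macrophages make, stood at -4.65, -6.85 and -4.51 in WT sham livers and at -0.51, 0.80 and -0.34 after BDL. In FSAP-/- livers it stood at -6.82, -5.59 and -5.14 and then at -1.12, -0.75 and 1.49. Only 1 of the 6 sham arrays was well above background, against 6 of 6 BDL arrays, and the groups lay far apart. F13a1 rose in WT (5.32, SE 0.80, adjusted p = 0.000638), a size that rests on 2 sham arrays not above background, and at least 28.2-fold in FSAP-/- livers (5.72, adjusted p = 0.000334). Its probe lies at chr13:36959214-36959273 (mm9), and its second probe was above background nowhere; normexp gave 3.00 and 2.95. F13b, the carrier B subunit from hepatocytes (probe at chr1:141420037-141420096, mm9), stood at 3.45, 3.53 and 3.44 and then 2.31, 2.14 and 2.40 in WT, and at 3.02, 3.58 and 3.61 and then 2.64, 2.13 and 2.18 in FSAP-/- livers. It fell by 1.19 in WT (SE 0.19, adjusted p = 0.00104) and by 1.09 in FSAP-/- livers (adjusted p = 0.00141), with no overlap in either.

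**Figure D3:**
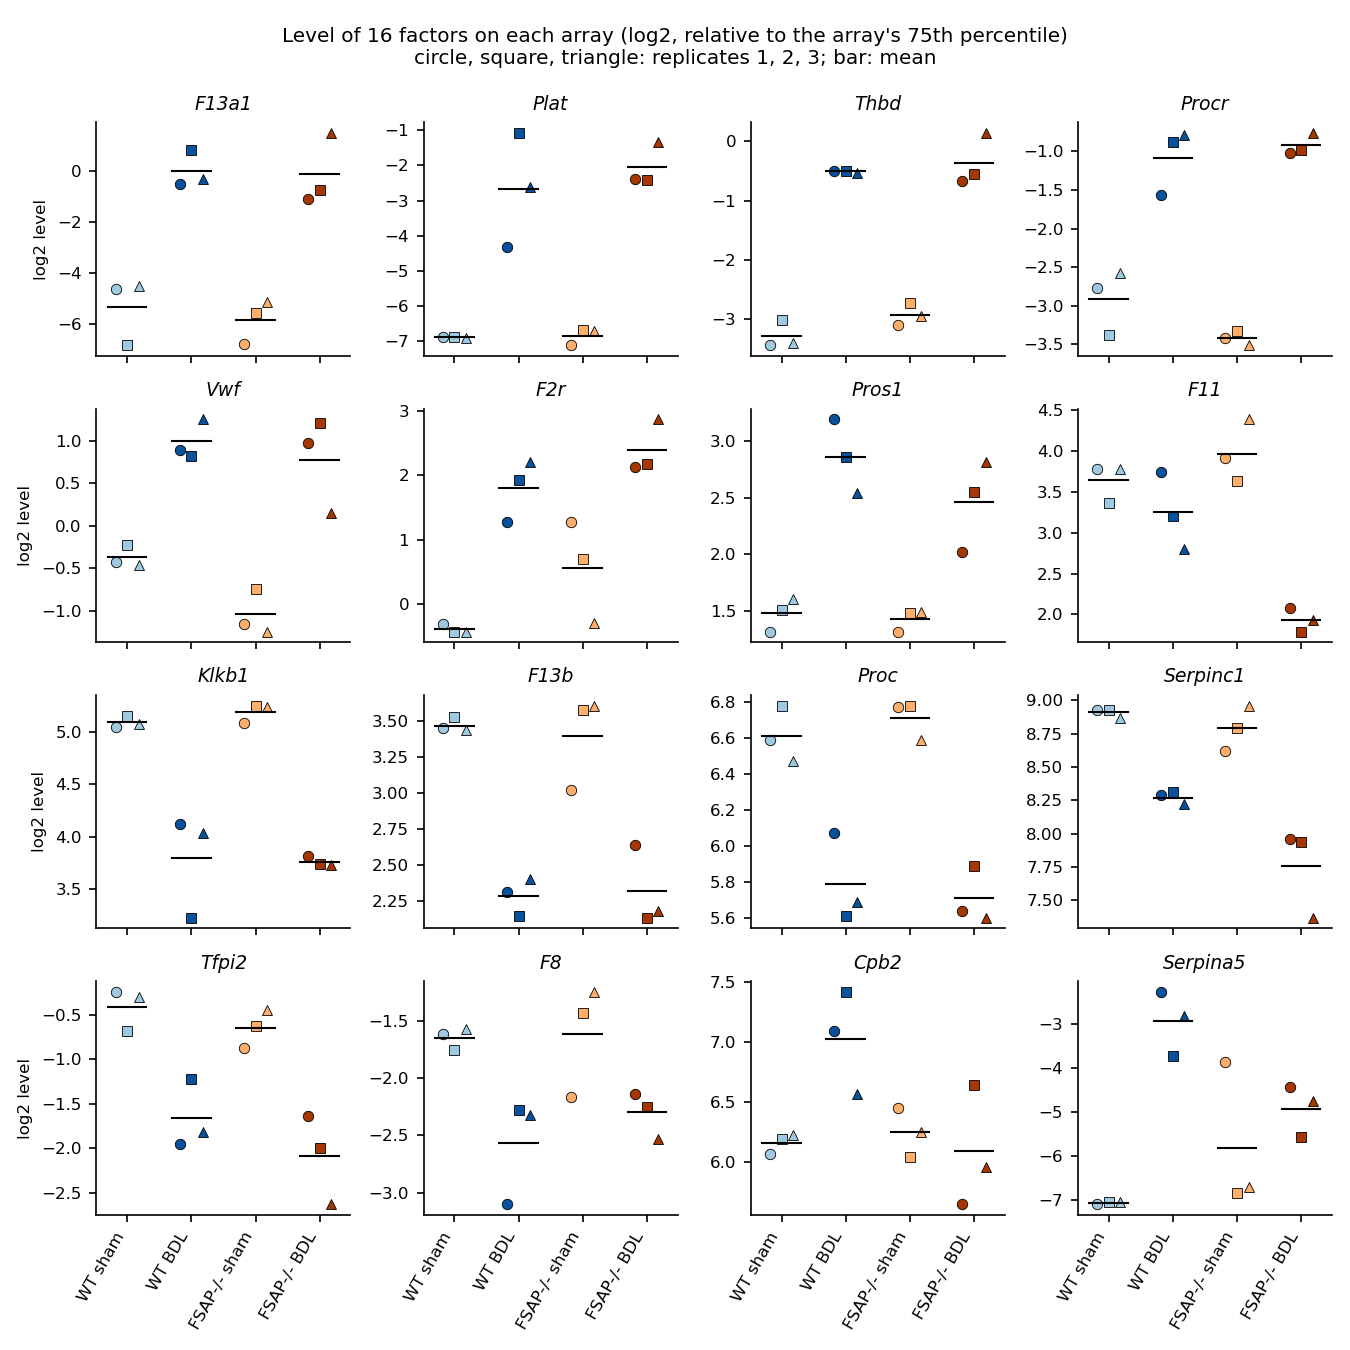
Level of 16 factors on each array (y axis, log2 relative to the 75th percentile, a separate scale per gene), by group on the x axis, with symbols for replicates and bars for means. F13a1 and Plat lie below -4.5 on all sham arrays and above it on all BDL arrays, while F13b, Klkb1, Proc and Serpinc1 are lower on every BDL array than on any sham array of the same genotype.

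Of the tissue factor and common pathway, F3, F10 and F5 are taken here, and they gave 1 call in 6 tests. Over all genes, 15.2% were called higher and 17.7% lower in WT, and 16.2% and 22.8% in FSAP-/- livers. Prothrombin, also of the common pathway, is described above and fell in both genotypes. F7, the protease that tissue factor binds, is described below and fell in both as well. F3, tissue factor, which starts clotting at the wound, lay between -1.69 and -0.13 over the 12 arrays and was at -0.73 in WT (adjusted p = 0.0864) and 0.07 in FSAP-/- livers. Its second probe gave -0.62 and 0.19. F10, factor X, the protease that both arms converge on, was at -0.33 and -0.54 and passed in neither by its brighter probe. Its second probe gave -0.66 and -0.91, and with the mean of both F10 fell in WT (-0.50, adjusted p = 0.0393) and in FSAP-/- livers (-0.73, adjusted p = 0.00546). F5, the cofactor of factor X, stood at 4.30, 4.69 and 4.59 and then 4.55, 4.03 and 4.28 in WT, where the groups overlapped. The FSAP-/- sham values were 4.60, 4.68 and 4.71 and the BDL values 4.0, 3.62 and 4.06, and it fell by 0.77 (SE 0.18, adjusted p = 0.00653). That call was lost with quantile normalization (-0.35, adjusted p = 0.179) and without the arrays with Y-linked signal (-0.63, adjusted p = 0.0914).

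Among the contact and intrinsic factors, F11 had the largest fall. F11, factor XI, which thrombin and factor XII activate, was read at chr8:46326753-46326812 (mm9). It stood at 3.91, 3.63 and 4.39 in FSAP-/- sham livers and at 2.08, 1.79 and 1.93 after BDL, and at 3.78, 3.36 and 3.78 and then 3.74, 3.20 and 2.80 in WT. All 3 FSAP-/- BDL arrays lay below all 9 other arrays, and the WT groups overlapped. F11 fell by 2.04 in FSAP-/- livers (4.12-fold, SE 0.26, adjusted p = 0.000206) and was at -0.39 in WT (adjusted p = 0.278). Each of the 12 fits that leave out an array kept its FSAP-/- call, as did the other settings, of which the one within slide 3 rests on 1 sham array.

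Klkb1, plasma prekallikrein, is the direct neighbour of F11 in RefSeq and a related gene, and it fell in both genotypes. It stood at 5.05, 5.15 and 5.07 and then 4.12, 3.23 and 4.04 in WT, and at 5.08, 5.25 and 5.24 and then 3.82, 3.74 and 3.73 in FSAP-/- livers, with no overlap. Klkb1 fell by 1.29 in WT (SE 0.21, adjusted p = 0.00099) and by 1.42 in FSAP-/- livers (adjusted p = 0.000446). F12, factor XII, which starts the contact system, lay between 4.23 and 5.43 over all arrays and was at 0.02 and -0.58. Kng1, the kininogen that carries prekallikrein, was at 0.04 and -0.09, and its second probe gave -0.66 and -0.94. The Kng1 probes thus disagreed, and cross-hybridisation to the paralog Kng2 was not tested.

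F9, factor IX, stood at 2.76, 2.74 and 2.78 and then 2.66, 2.43 and 2.27 in WT, and at 2.46, 2.88 and 3.02 and then 2.12, 2.17 and 1.73 in FSAP-/- livers. BDL arrays were lower without overlap in both, but only the FSAP-/- fall of 0.78 passed (SE 0.18, adjusted p = 0.00685), with -0.30 in WT (adjusted p = 0.233). F8, its cofactor from endothelium, stood at -1.62, -1.76 and -1.57 and then -3.10, -2.28 and -2.32 in WT, and at -2.17, -1.43 and -1.25 and then -2.14, -2.25 and -2.53 in FSAP-/- livers. It fell by 0.91 in WT (SE 0.27, adjusted p = 0.0251) and was at -0.68 in FSAP-/- livers (adjusted p = 0.0687), where replicate 1 of sham overlapped the BDL arrays. Without that array the FSAP-/- change was -0.96 (adjusted p = 0.0143), and the WT call was lost without any 1 WT sham array or without replicate 1 of WT BDL. Vwf, von Willebrand factor, which carries factor VIII and tethers platelets, went the other way. It stood at -0.43, -0.22 and -0.46 and then 0.89, 0.82 and 1.25 in WT, and at -1.15, -0.74 and -1.24 and then 0.97, 1.20 and 0.15 in FSAP-/- livers. Vwf rose 2.56-fold in WT (1.36, SE 0.26, adjusted p = 0.00255) and 3.52-fold in FSAP-/- livers (1.82, adjusted p = 0.000378), with no overlap.

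Among the 10 anticoagulants, 4 rose and 5 fell in WT, where 15.2% of all genes were called higher and 17.7% lower. In FSAP-/- livers 3 rose and 5 fell, where 16.2% of all genes were called higher and 22.8% lower. Serpinc1, antithrombin, stood at 8.93, 8.93 and 8.87 and then 8.29, 8.31 and 8.22 in WT, and at 8.62, 8.79 and 8.96 and then 7.96, 7.94 and 7.37 in FSAP-/- livers. It fell by 0.64 (SE 0.17, adjusted p = 0.0154) and by 1.03 (adjusted p = 0.000915), and with quantile normalization it was at -0.32 (adjusted p = 0.239) and -0.44 (adjusted p = 0.0984). Every BDL array lay below every sham array of its genotype. Serpind1, heparin cofactor II, fell by 0.72 in WT (adjusted p = 0.00366) and by 1.11 in FSAP-/- livers (adjusted p = 0.000249). Proz, protein Z, the cofactor of the factor X inhibitor ZPI, fell by 0.76 and 0.90, and Proc, protein C, the zymogen of the protease that inactivates factors V and VIII, fell by 0.82 and 1.00. BDL and sham arrays did not overlap for these 3 genes in either genotype. Serpina10, which encodes ZPI itself, did not follow its cofactor: it was at 0.41 in WT (adjusted p = 0.212) and -0.15 in FSAP-/- livers, and it rose in WT with quantile normalization (0.69, adjusted p = 0.0247).

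Pros1, the cofactor of activated protein C, rose in both genotypes. It stood at 1.32, 1.51 and 1.61 and then 3.19, 2.86 and 2.54 in WT, and at 1.32, 1.48 and 1.49 and then 2.02, 2.55 and 2.81 in FSAP-/- livers. The groups did not overlap, and Pros1 rose 2.61-fold in WT (1.38, SE 0.22, adjusted p = 0.000925) and 2.04-fold in FSAP-/- livers (1.03, adjusted p = 0.00414). Endothelial cells and macrophages are also known to make protein S, and the source of the signal was not tested. Serpina5, the protein C inhibitor, which hepatocytes of other species make, stood at -7.10, -7.06 and -7.04 and then -2.26, -3.73 and -2.80 in WT. The FSAP-/- values were -3.85, -6.84 and -6.72 in sham and -4.44, -5.56 and -4.75 after BDL. It was well above background on 0 of 3 WT sham and 3 of 3 WT BDL arrays, so that it rose at least 4.21-fold in WT (4.14, adjusted p = 0.00125). The FSAP-/- change was 0.89 (adjusted p = 0.34), with replicate 1 of sham above all 3 BDL arrays, and it was 1.87 and passed (adjusted p = 0.00684) without that array. With normexp the changes were 1.13 in WT, which passed, and -0.22 in FSAP-/- livers.

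The receptors of the protein C system on endothelium both rose. Thbd, thrombomodulin, which turns thrombin into an activator of protein C, stood at -3.44, -3.02 and -3.41 and then -0.51, -0.50 and -0.53 in WT, and at -3.10, -2.72 and -2.95 and then -0.67, -0.56 and 0.14 in FSAP-/- livers. The BDL arrays were close to each other in WT, and the groups lay well apart. Thbd rose 6.85-fold in WT (2.78, SE 0.22, adjusted p = 1.54e-05) and 5.91-fold in FSAP-/- livers (2.56, adjusted p = 2.3e-05). Procr, the endothelial protein C receptor, stood at -2.77, -3.38 and -2.57 and then -1.57, -0.88 and -0.79 in WT, and at -3.42, -3.33 and -3.51 and then -1.02, -0.98 and -0.76 in FSAP-/- livers. It rose 3.55-fold in WT (1.83, adjusted p = 0.00033) and 5.66-fold in FSAP-/- livers (2.50, adjusted p = 4.91e-05). Tfpi2, a Kunitz inhibitor of plasmin and the tissue factor complex, fell. It stood at -0.24, -0.68 and -0.30 and then -1.95, -1.22 and -1.82 in WT, and at -0.87, -0.63 and -0.44 and then -1.64, -2.0 and -2.63 in FSAP-/- livers, for falls of 1.25 (SE 0.27, adjusted p = 0.00514) and 1.44 (adjusted p = 0.00198). Proc fell in the same livers in which Thbd and Procr rose.

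In the fibrinolytic group, Plat had the largest change. Plat, tissue plasminogen activator, was read at chr8:23892531-23892590 (mm9) and stood at -6.87, -6.87 and -6.91 in WT sham livers and at -4.32, -1.08 and -2.61 after BDL. The FSAP-/- values were -7.11, -6.69 and -6.70 in sham and -2.38, -2.41 and -1.34 after BDL. It was well above background on 0 of 6 sham and 5 of 6 BDL arrays. Plat rose at least 5.05-fold in WT (4.22, SE 0.63, adjusted p = 0.000609) and at least 7.48-fold in FSAP-/- livers (4.79, adjusted p = 0.000239), with normexp values of 1.24 and 1.38 that also passed. Plg, plasminogen, its substrate, stood at 7.20, 7.38 and 7.27 and then 6.13, 6.51 and 6.58 in FSAP-/- livers, and at 7.23, 7.57 and 7.39 and then 7.38, 6.71 and 6.28 in WT. It fell by 0.87 in FSAP-/- livers (SE 0.25, adjusted p = 0.0174) and was at -0.60 in WT (adjusted p = 0.0846), where replicate 1 of BDL lay among the sham arrays. The FSAP-/- call was lost without replicate 2 of sham or replicate 1 of BDL, without the arrays with Y-linked signal (-0.74, adjusted p = 0.182) and with quantile normalization (-0.36, adjusted p = 0.19).

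Cpb2, the thrombin-activated carboxypeptidase TAFI, which protects fibrin from plasmin, stood at 6.07, 6.19 and 6.23 and then 7.09, 7.42 and 6.57 in WT, and at 6.45, 6.04 and 6.25 and then 5.65, 6.64 and 5.96 in FSAP-/- livers. The WT groups did not overlap and the FSAP-/- groups did. It rose by 0.86 in WT (SE 0.27, adjusted p = 0.0308) and was at -0.16 in FSAP-/- livers. Leaving out any WT sham array, or replicate 1 or 2 of WT BDL, ended the WT call, as did scaling to the median (0.71, adjusted p = 0.0835). Hrg, the histidine-rich glycoprotein that binds plasminogen and heparin, was at 0.33 in WT and -0.50 in FSAP-/- livers and passed in neither. On WT BDL arrays it stood at 7.62, 6.60 and 6.07, high on the same replicate 1 as the fibrinogen chains.

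The last group holds receptors and a ligand. F2r, the thrombin receptor PAR1, stood at -0.31, -0.43 and -0.43 and then 1.27, 1.92 and 2.20 in WT, and at 1.28, 0.70 and -0.29 and then 2.13, 2.17 and 2.87 in FSAP-/- livers. It rose 4.55-fold in WT (2.19, SE 0.37, adjusted p = 0.00141) and 3.55-fold in FSAP-/- livers (1.83, adjusted p = 0.00322), with no overlap in either. F2rl1, PAR2, which tissue factor complexes and trypsin cleave, was well above background on 3 of the 12 arrays and was at 1.92 in WT (adjusted p = 0.0767) and 0.58 in FSAP-/- livers. Gas6, the vitamin K-dependent ligand of the TAM receptors, was at 0.32 and 0.74 and passed in neither, with levels from 2.50 to 4.69.

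Vitamin K-dependent factors did not move as 1 group. F2, Proc and Proz fell in both genotypes, as did F7, which is not among the listed factors and is described below. F9 fell in FSAP-/- livers, Gas6 passed in neither, F10 passed only with the mean of its probes, and Pros1 rose in both.

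Both classes spread more after BDL in WT. The WT sham arrays shared slide 1, while the WT BDL arrays were on slides 1 and 2. Spread after BDL and slide therefore cannot be told apart in WT, and the share over all genes was not computed. Among hepatocyte-made genes, the SD over 3 arrays was larger after BDL than in sham for 21 of 22 in WT and 15 of 22 in FSAP-/- livers. Their median SDs were 0.15 and 0.44 in WT and 0.13 and 0.31 in FSAP-/- livers. Among endothelial and inducible genes it was larger for 8 of 11 in WT and 7 of 11 in FSAP-/- livers. Their median SDs were 0.23 and 0.44 in WT and 0.26 and 0.50 in FSAP-/- livers. Replicate 1 of WT BDL was the highest WT BDL array for 17 of the 22 hepatocyte-made genes, and replicate 3 the lowest for 17. Relative to the sham mean, the hepatocyte-made median was 0.17, -0.38 and -0.50 on the WT BDL arrays and -0.70, -0.79 and -0.65 on the FSAP-/- BDL arrays. For the 11 endothelial and inducible genes it was 1.33, 2.03 and 1.62, and 1.57, 1.72 and 1.19.

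**Figure D4:**
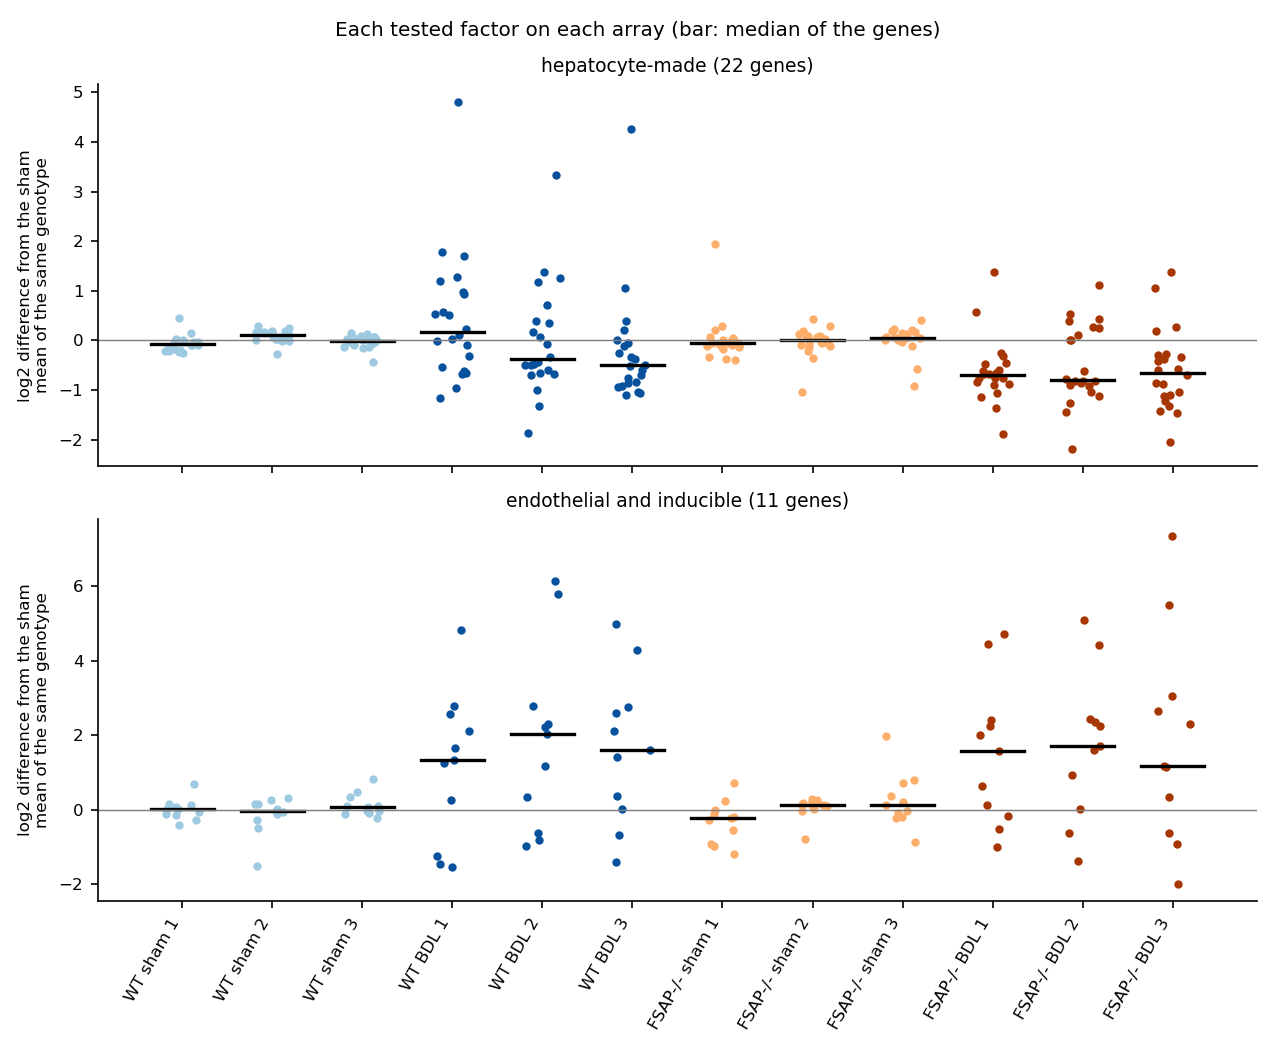
Difference of each tested factor on each array from the sham mean of its genotype (y axis, log2), with 22 hepatocyte-made genes above and 11 endothelial and inducible genes below, and a bar for the median of the genes on each array. The hepatocyte-made median is 0.17 on replicate 1 of WT BDL and between -0.38 and -0.79 on the other 5 BDL arrays.

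Slide touches both comparisons. Slide 1 holds the WT sham arrays with the 1 WT BDL array on which the hepatocyte-made class was high, and there 13 factors rose and 7 fell, with that lone BDL array assumed to vary like the others. The WT values with slide as a block rest on the same BDL array, since slide 1 alone holds both WT groups, and 7 rose and 3 fell: F2, Klkb1, Vwf, Serpinc1, Serpind1, Proz, Proc and Cpb2 missed the threshold, each with the sign it had before. Within slide 3, with 1 FSAP-/- sham array, likewise assumed to vary like the others, against 3 BDL arrays, Procr, Thbd, Plat and F2r rose and F11 fell. The slide as a block, which rests on that same sham array, gave 7 rises and 11 falls in FSAP-/- livers, without F5, Pros1 and Plg and with F8 and Serpina5. The class medians were 0.17 within slide 1 and -0.77 within slide 3 for hepatocyte-made factors, and 1.33 and 2.01 for endothelial and inducible ones.

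**Figure D5:**
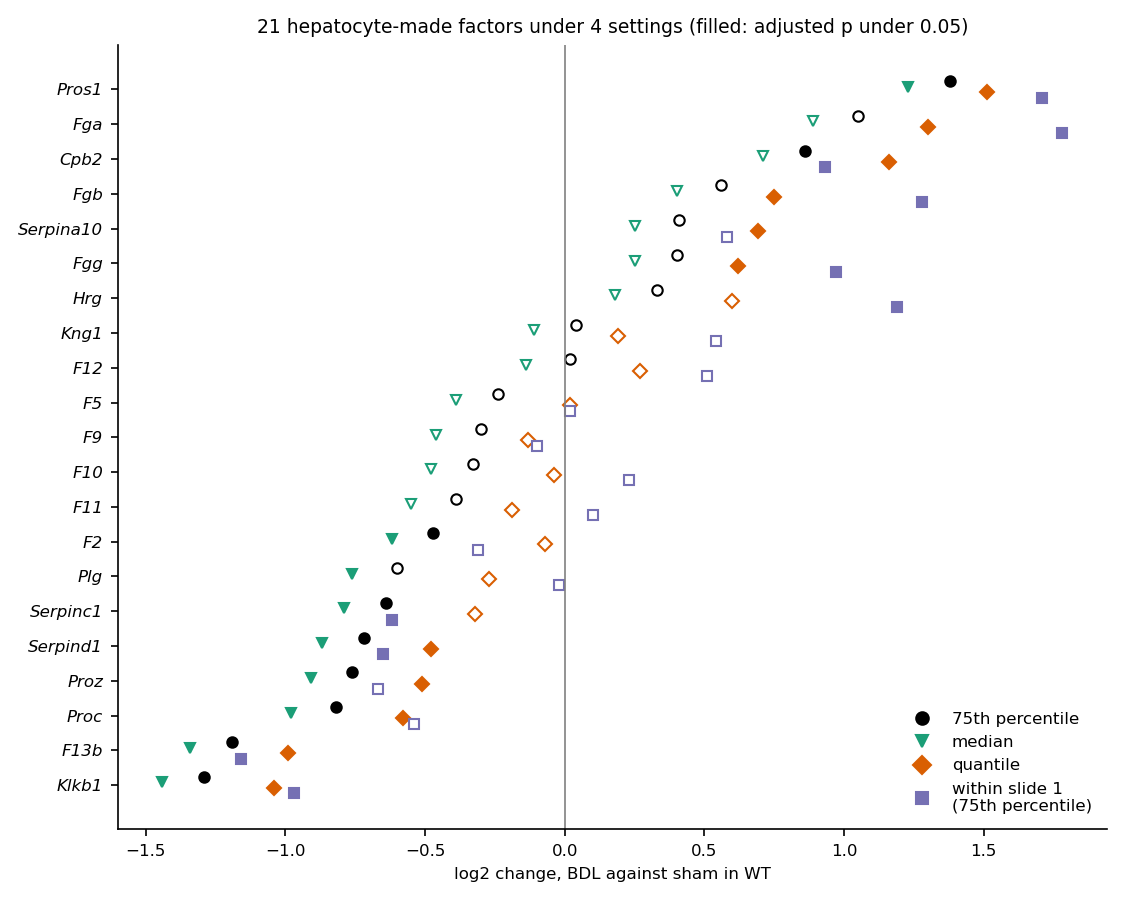
Log2 change after BDL in WT (x axis) for 21 hepatocyte-made factors under 4 settings, filled where the adjusted p was under 0.05 (Serpina5, at 4.14, lies outside the range and is left out). Quantile values lie to the right of those scaled to the 75th percentile, and within slide 1 the 3 fibrinogen chains and Hrg are filled, at 1.78, 1.28, 0.97 and 1.19.

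Markers of the cells that make these factors are set here, and in the paragraphs that follow, beside the shares of all genes. Of all genes, 15.2% were called higher and 17.7% lower in WT, and 16.2% and 22.8% in FSAP-/- livers. Of 12 hepatocyte markers, 0 rose and 2 fell in WT (median -0.34), and these falls were near the share of all genes. In FSAP-/- livers 0 rose and 8 fell (median -0.74). Alb, albumin, was at -0.46 in WT (adjusted p = 0.134) and fell by 0.65 in FSAP-/- livers (adjusted p = 0.0364), and Ttr, transthyretin, fell by 1.04 and 1.24. In bulk liver, fewer hepatocytes and less RNA per hepatocyte cannot be told apart. The summed signal of these markers, in multiples of the 75th percentile, was 2860 to 3240 in WT sham and 1830 to 2980 in WT BDL livers, and 2950 to 3330 and then 1480 to 2270 in FSAP-/- livers. No hepatocyte marker was below background on all arrays of a group.

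Of 10 macrophage markers, 8 rose in WT (median 1.09) and 10 rose in FSAP-/- livers (median 1.95), and none fell. Adgre1 rose by 0.75 and 1.94, and Cd68 by 1.97 and 3.06. Their summed signal was 45.1 to 67.5 in WT sham and 114 to 121 in WT BDL, and 35.7 to 54.8 and then 127 to 159 in FSAP-/- livers, and each was well above background in every group. Platelet markers gave 2 rises in WT and 3 in FSAP-/- livers of 8 tested, with Pf4 at 2.14 (adjusted p = 0.107) and 3.05 (adjusted p = 0.0257) and Itga2b at 1.17 and 1.12, both passing. Their summed signal ran from 1.11 to 1.68 in WT sham, 3.4 to 8.82 in WT BDL, 1.09 to 1.68 in FSAP-/- sham and 2.78 to 24.6 in FSAP-/- BDL livers, and Gp5 was above background nowhere. Gp1ba and Gp6 were not above background in either sham group, nor were Itga2b and Gp9 in FSAP-/- sham livers. Against the sham mean, the median of the 8 tested was 0.40, 1.65 and 0.78 on the WT BDL arrays and 2.27, 0.85 and 0.72 on the FSAP-/- BDL arrays. The highest F13a1 of all arrays, on replicate 3 of FSAP-/- BDL, stood beside the lowest of these medians in its group. On that same array Pf4 had its highest level of all arrays. Pf4 stood at 0.15, 2.45 and 0.65 on the WT BDL arrays and at 1.08, 0.20 and 4.50 on the FSAP-/- BDL arrays. The part of platelets and macrophages in the F13a1 values was not tested.

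Endothelial markers were mixed. Of all genes, 15.2% were called higher and 17.7% lower in WT, and 16.2% and 22.8% in FSAP-/- livers. Of 10 vascular endothelial markers, 2 rose in WT (median 0.15) and 3 in FSAP-/- livers (median 0.38), with 0 falls. The largest of these rises, named after its value was seen, was that of Cd34, at 1.59 and 2.47. Pecam1 was at 0.46 (passing) and 0.32 and Cdh5 at 0.19 and 0.83 (passing), beside 1.36 and 1.82 for Vwf, 2.78 and 2.56 for Thbd and 1.83 and 2.50 for Procr. Of 9 sinusoidal endothelial markers, 1 rose and 2 fell in WT (median -0.33) and 2 rose and 2 fell in FSAP-/- livers (median -0.40), Stab2 was at 0.07 and -0.40, and Lyve1 rose by 4.11 and 2.46. The vascular sum was 9.01 to 9.73 in WT sham, 8.13 to 12.8 in WT BDL, 7.74 to 10.3 in FSAP-/- sham and 12.4 to 14.8 in FSAP-/- BDL livers, and the sinusoidal sum 49.7 to 57.6, 43.5 to 47.6, 46.8 to 54.2 and 34.4 to 45.9 in the same order, with every marker above background in every group. F8, which sinusoidal endothelium is known to make, fell in WT. These are values side by side, with no test between lists.

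Other cell types can also make the inducible factors. Cholangiocyte markers gave 6 rises of 7 tested in each genotype (medians 3.30 and 3.52), among them Krt7 at 3.60 and 4.21 and Krt19 at 3.30 and 3.52. Stellate cell and myofibroblast markers gave 3 and 6 rises of 9 (medians 0.72 and 1.97), with Lrat at 0.03 and 0.72 and Reln at -0.47 and 0.27 passing in neither. Mesothelial markers gave 4 and 6 rises of 7 (medians 1.70 and 2.21), with Msln at 2.59 and 2.43 and Upk3b at 0.48 and 1.17. From sham to BDL the summed signal went from 1.42 to 1.75 up to 13.5 to 16.5 in WT and from 1.37 to 2.05 up to 11.6 to 43.9 in FSAP-/- livers for cholangiocyte markers. For stellate markers it was 39.9 to 44.1 and 25.8 to 81 in WT, and 33.7 to 41.7 and 72.4 to 158 in FSAP-/- livers, and for mesothelial markers 0.57 to 0.902 and 2.08 to 4.17, and 0.778 to 1.17 and 3.5 to 5.61. Epcam and Upk1b were among the markers above background on no sham array. The part of these cells in the rises of F13a1, Plat, Thbd, Procr and F2r was not tested.

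The second question was whether FSAP itself changed the response. In sham livers 0 of 33 factors differed between FSAP-/- and WT, where 0.0154% of all genes were called (limma), and Vwf (-0.67) and F2r (0.95) had an unadjusted p under 0.05, as did 1538 of all 19531 genes. After BDL 0 differed, where 0.215% of all genes were called, and 10 had an unadjusted p under 0.05: Fga, Fgg, F2, F9, F11, Serpinc1, Serpind1, Serpina5, Cpb2 and Hrg, all lower in FSAP-/- livers. Of all genes, 2522 had such a p in that comparison. The interaction, which tests whether BDL changed a gene differently in the genotypes, called 0 factors and 0.0102% of all genes, with F11, Serpina5 and Cpb2 at an unadjusted p under 0.05. That is 3 of 33, beside 2678 of 19531 genes, which is no larger a share. A p that misses the threshold does not show that the genotypes respond alike.

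F11 came closest. After BDL it was lower in FSAP-/- than in WT livers by 1.32 on the log2 scale (95% interval -1.89 to -0.74, SE 0.26, adjusted p = 0.0806), and the arrays did not overlap. Its interaction was -1.65 (SE 0.37, adjusted p = 0.127). The BDL difference passed with normexp background correction (-1.27, adjusted p = 0.0282) and without replicate 3 of WT BDL (-1.54, adjusted p = 0.0421), and without replicate 1 of that group it was -1.07 (adjusted p = 0.227). With slide as a block it was -1.83 (adjusted p = 0.496). Serpina5 had an interaction of -3.25 (SE 0.98, adjusted p = 0.187) and Cpb2 of -1.02 (SE 0.38, adjusted p = 0.278).

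Over the hepatocyte-made class the change after BDL was lower in FSAP-/- than in WT livers for 21 of 22 genes, F13b being the exception, with a median interaction of -0.44. The median interaction of the 11 endothelial and inducible genes was 0.40 and that of all genes -0.08, with 11207 of 19531 below 0. Other hepatocyte lists showed the same sign: 11 of 12 hepatocyte markers (median -0.35) and 14 of 14 acute phase genes (median -1.09) were lower. With quantile normalization the hepatocyte-made median was -0.24, with slide as a block -0.84, and without the arrays with Y-linked signal it was -0.53. The 22 genes were read on the same arrays and are not independent, and slide and genotype cannot be told apart here.

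Of 24 further genes of the pathway listed beside the 34, 22 were tested. In WT 6 rose and 4 fell, where 15.2% of all genes were called higher and 17.7% lower. In FSAP-/- livers 7 rose and 6 fell, where 16.2% of all genes were called higher and 22.8% lower. The median change of the list was -0.07 in each genotype, and the share of falls was near that of all genes. Of the genes with the largest change in either genotype, the 4 described here rose in both. Plaur, the urokinase receptor, rose by 4.04 and 4.32, Plau, urokinase, by 1.43 and at least 8.56-fold in FSAP-/- livers (3.48), and Anxa2, a plasminogen and Plat receptor subunit, by 3.47 and 3.65. Axl, a receptor of Gas6, rose by 0.97 and 1.93. The 4 that fell in WT, named after their values were seen, were F7, the protease that tissue factor binds (-1.17), Vkorc1, which recycles vitamin K (-1.21), Lman1, which helps factors V and VIII out of the endoplasmic reticulum (-0.76), and Adamts13, which trims von Willebrand factor (-1.44). F7, Vkorc1 and Lman1 fell in FSAP-/- livers too, by 1.53, 1.15 and 1.02, while Adamts13 was at -0.83 (adjusted p = 0.116).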

How the data were processed

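Liver RNA of 12 mice was read on 12 one-colour arrays. Per the file headers, Agilent Feature Extraction 10.5.1.1 made the deposited scanner values. Per the file headers, the processed signal is a linear intensity from which the scanner software had taken background and spatial trend; arrays were not brought to 1 scale. The authors also deposited a table of log2 values with column medians of 5.655 to 5.665. For WT sham replicate 2 its values correlated with log2 of the scanner signal at 0.9998. For the other arrays no correlation was obtained. The sources used here do not say how the deposited table was normalized. Its scale and its lack of gene centring were read from this match on 1 array, and no direction enters since its values are levels.

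From the scanner files, spots with an outlier mark were left out (79 of 234372 gene values), spots of a probe were averaged, and log2 of the processed signal minus the array's 75th percentile was taken. No spot was saturated. Probes were named through RefSeq accessions where these matched (26406 of 33063), and positions of probes were taken from the files (mm9). The exon under a probe is not given, since no annotation of that build was used. The file of FSAP-/- sham replicate 1 gives the same gene names as the other files for 8.53% of probes, holds 3 significant digits, names no genome build and was joined by probe. The brightest probe stood for a gene, and genes well above background on at least 3 arrays were tested with limma 3.58.1 in R 4.3.3, in 1 model of 4 group means over 12 arrays (8 residual and 2.69 prior degrees of freedom), adjusted over 19531 genes at a false discovery rate of 0.05. The fit was checked on simulated data. Where the dimmer group had no array well above background, a fold is a bound: the brighter mean against the higher, on each dim array, of the probe's signal and the lowest signal well above background. With 3 mice per group, precision is limited by their number.

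The 34 factors, their 2 classes and the other lists were chosen with earlier results of these data known. All 34 are named with values; of the other pathway genes, Habp2 and the 5 with the largest change among those called, and of each marker list its first 2 genes, unless stated. Some items that this rule names are not reported here. Alternatives changed the scaling, background correction, filter, probe rule, gene names, slide, replicate block, samples in the fit and left out single arrays. RNA integrity was at least 7.2, per the labels.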

Additional observations from a re-analysis of the deposited data

How the results depend on the processing

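Leaving out an array of the other genotype, or changing the filter, leaves a log2 change as it was, so such fits bear on its p and not on its direction. Under 14 other settings and 12 fits that each left out 1 array, no called change of a factor turned its direction. In WT, 8 of 18 calls held under all of these (F13a1, F13b, Serpina5, Pros1, Thbd, Tfpi2, Plat and F2r), and in FSAP-/- livers 5 of 19 (F11, Procr, Thbd, Plat and F2r). With the slide block, 10 factors were called in WT in place of 18. Within slide 3, where 1 sham array stands alone and is assumed to vary like the other groups, 5 were called in FSAP-/- livers in place of 19. Leaving out 1 array gave 15 to 19 calls in WT, 18 to 21 in FSAP-/- livers, and 0 to 1 for FSAP-/- against WT in BDL, where the 1 was F11 without WT BDL replicate 3. Normexp background correction also gave 1 call there, F11. It lowered the changes of the dim genes F13a1, Serpina5 and Plat in WT to 3.00, 1.13 and 1.24. This setting starts from the mean signal and the median background of each spot and adds an offset of 50. The part of each in the lower values was not tested. The mean of both probes lowered F13a1 to 2.59 in WT and 2.92 in FSAP-/- livers, since its second probe was above background nowhere.

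Same-numbered arrays did not deviate together (correlations of -0.202 to 0.191). These correlations cannot show whether the mice were paired in the experiment. With the replicate block, 18 factors were called in WT (9 rose, 9 fell) and 19 in FSAP-/- livers (7 rose, 12 fell). Without the 3 arrays with Y-linked signal, 8 rose and 11 fell in FSAP-/- livers, with F8 and Serpina5 added and F5 and Plg lost. Factors near background (F13a1, Plat, Serpina5, Serpinb2 and F2rl1) have bounds or imprecise sizes.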
